A study of Homo sapiens with 6 samples.

Results

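The transcripts described here were the array features of human chromosomes 4 and 15 that carried no gene symbol. On this Affymetrix array a transcript cluster is a set of probes designed against 1 transcribed region, and its identifier names the chromosome (TC04 or TC15) followed by a running number. A cluster counted as unnamed when the platform annotation listed no symbol for it, and members were chosen by their level: an unnamed cluster was kept when its value exceeded the array-wide median in 3 or more of the 6 arrays. That rule kept 1270 of 3997 unnamed clusters, namely 500 of 2047 on chromosome 4 and 770 of 1950 on chromosome 15, out of 33222 clusters tested and 70523 features on the whole array. Both chromosomes were selected on the differences of their named genes, which fell in runs in these same arrays, so every count over the members is a description and carries no test of the chromosome.

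The cells were U87 MG, an established human glioblastoma line grown in serum-containing medium without further treatment. The overexpression group consisted of 3 arrays of stable U87 MG cells transfected with a pCDNA3.1D/V5-His-TOPO plasmid carrying GUCY1B3, and the control group of 3 arrays of U87 MG. The labels name no empty-vector control, and they do not say whether the stable cells were a clone or a pool, so the transgene, the plasmid and the selection of stable cells cannot be told apart. Nothing in the labels says that the 3 arrays of a group came from separate cultures, so the p-values measure only the spread between these arrays. GUCY1B3 is the former symbol of GUCY1B1, the beta subunit of soluble guanylate cyclase, the enzyme that makes cyclic GMP when nitric oxide binds its heme.

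An unnamed cluster can stand for a long non-coding RNA, an unannotated exon, a pseudogene or a copied repeat, and its signal does not say which. Chromosome 15 is known for blocks of duplicated sequence, among them the golgin repeats of the GOLGA6 and GOLGA8 families, in which near-identical copies lie far apart on the same chromosome. Around many human centromeres lie similar duplications shared between chromosomes. A probe set in such sequence can match several places at once.

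GUCY1B1 itself lies on chromosome 4 and read 8.10, 8.18 and 8.40 on the overexpression arrays against 7.45, 7.70 and 7.49 on the control arrays, in log2 RMA units. It rose by 0.68 on the log2 scale (limma, adjusted p = 0.0109), and the groups did not overlap. The intermediate filament gene VIM, abundant in U87 MG, was at 12.15 ± 0.03 (SD, n = 3) against 12.09 ± 0.08 (n = 3), while the astrocyte marker GFAP was dim at 5.80 ± 0.08 against 5.70 ± 0.09. None of the 13 tested marker genes of U87 MG, of glia and neurons or of other cell types passed the test. Mean levels ran from 5.34 (CHI3L1) to 12.12 (VIM) for U87 MG and from 5.48 to 6.57 for glia and neurons. Among markers of other cells, the lysosomal gene CD68, a leukocyte marker, was bright at 10.96 ± 0.01 against 10.98 ± 0.24. PTPRC, PECAM1 and HBB lay between 3.41 and 4.64, and EPCAM and CD14 at 4.90 and 4.95. The endothelial CDH5 (5.18) and the epithelial KRT19 (5.69) stood above the array median on all 6 arrays. The 6 arrays correlated at 0.981 to 0.995 over the tested clusters, their medians over all features lay between 4.97 and 5.03, and control replicate 3 took the lowest array weight, 0.382. With 3 arrays a group, precision is limited by their number.

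Most unnamed transcripts of both chromosomes were dim. Their mean level over 6 arrays had a median of 5.80 on chromosome 4 and 5.88 on chromosome 15, close to the 5.89 of unnamed clusters on the other chromosomes. Levels ran from 4.92 to 13.63 on chromosome 4, where 8 members exceeded 10, and from 4.89 to 12.62 on chromosome 15, where 16 did. On chromosome 4, 434 of the 500 members stood above the array median on all 6 arrays, and on chromosome 15, 665 of the 770. The filter admitted 4 members of chromosome 4 through the control arrays only and 1 through the overexpression arrays only, of which 1 each passed the test. On chromosome 15 it admitted 2 through the control arrays only, and neither passed. Of the unnamed clusters left out, 1499 of 1547 on chromosome 4 and 1098 of 1180 on chromosome 15 exceeded the median on 0 arrays.

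The threshold ran through values that lay close together. Just inside it, TC04001112 read 5.03 ± 0.04 in overexpression and 4.93 ± 0.05 in control cells (SD, n = 3 each), and TC15000344 read 4.99, 5.01 and 5.02 against 4.82, 4.97 and 4.78 (identifiers are given without their shared suffix). Just outside it, TC04000931 read 5.02, 4.90 and 5.09 against 4.90, 4.78 and 5.15, and TC15000547 read 4.54, 4.95 and 5.02 against 5.51, 4.82 and 5.02. The brightest unnamed transcripts differed little. TC04000491 and TC04001102 shared 1 set of values, 13.64 ± 0.08 in overexpression and 13.62 ± 0.06 in control cells (n = 3 each; limma, adjusted p = 0.945), and their groups overlapped. That set was found in 5 features on 4 chromosomes. On chromosome 15, TC15002610 read 12.56, 12.53 and 12.57 against 12.68, 12.66 and 12.76 (adjusted p = 0.188), and TC15002586 read 12.03, 12.11 and 12.03 against 12.26, 12.22 and 12.27 (adjusted p = 0.101). All overexpression arrays of these chromosome 15 transcripts lay below all control arrays, but neither passed the test.

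On chromosome 4, 23 of the 500 unnamed members fell and 14 rose at an adjusted p under 0.05, that is 4.6% lower and 2.8% higher. Over all tested clusters of the array, 2.29% were lower and 3.57% higher, 5.86% in either direction. The named clusters of the same chromosome were lower far more often, 56 of 486 or 11.5%, with 13 higher. The median difference of the unnamed members, overexpression minus control on the log2 scale, was 0.01, with quartiles of -0.08 and 0.11. It was -0.03 for the named clusters of the chromosome and 0.03 for all tested clusters. The groups of arrays did not overlap downward in 63 members and upward in 68, against 9.78% and 15.4% of all tested clusters. A difference of at least 2-fold was reached by 3 members, all lower.

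On chromosome 15, 27 of the 770 unnamed members fell and 13 rose, 3.51% and 1.69%, against 57 lower and 14 higher among its 541 named clusters. Over all tested clusters of the array the shares were 2.29% lower and 3.57% higher. The 27 falls came from 20 distinct sets of values, since several clusters carried identical readings. The median difference was -0.01 for the unnamed members, with quartiles of -0.12 and 0.09, and -0.06 for the named clusters. Of the unnamed members 51.6% lay below 0, of the named clusters 67.7%, and of all tested clusters 40.7%. The groups did not overlap downward in 94 of the 770 members and upward in 67, against 9.78% and 15.4% of all tested clusters.

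Among the 23 chromosomes compared (1 to 22 and X), chromosome 4 had the highest share of unnamed clusters called lower and chromosome 15 the third highest, with chromosome 13 between them at 3.82%. For named clusters chromosomes 4 and 15 ranked first and second. On the other 21 chromosomes together, 221 of 14138 unnamed clusters were lower, 1.56%, and 443 were higher, 3.13%. The ranking of the named clusters is the pattern by which the chromosomes were chosen. The plot of called shares by chromosome sets both kinds side by side.

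**Figure D1:**
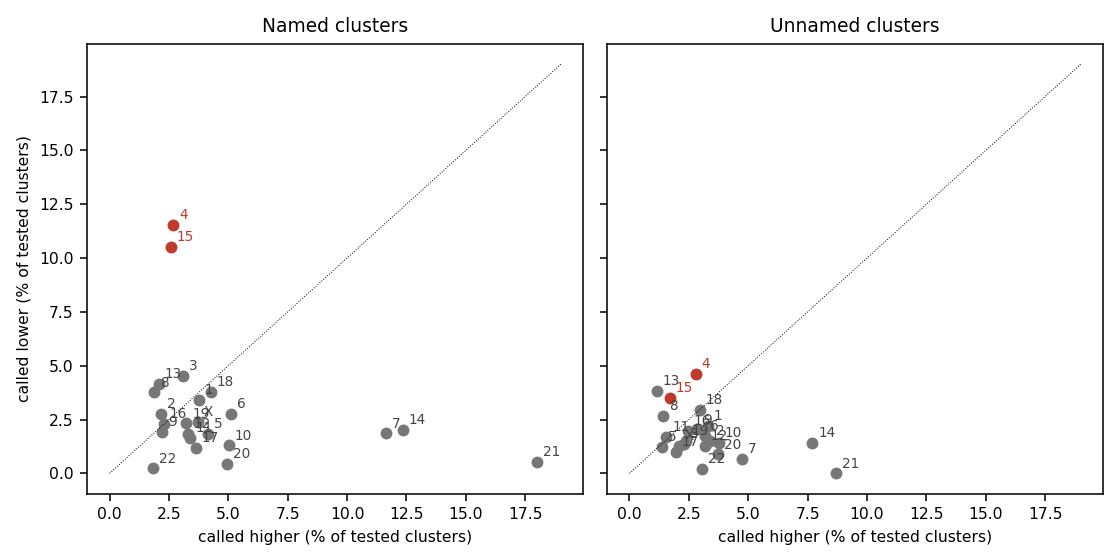
Share of tested clusters called higher (x axis, percent) and lower (y axis, percent) in overexpression cells for each chromosome, 1 point per chromosome, with named clusters on the left and unnamed clusters on the right; the dotted line marks equal shares. Chromosomes 4 and 15 (red) stand at 11.5% and 10.5% lower for named clusters and at 4.6% and 3.51% for unnamed ones.

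Where the unnamed transcripts lie could be read in part from their identifiers. On each chromosome the numbers ran in a first series, whose named genes lay on the plus strand, and then in a second series, whose named genes lay on the minus strand. On chromosome 4, all 300 strand-matched named genes of the first series were on the plus strand and all 296 of the second on the minus strand; on chromosome 15, 243 of 245 and 244 of 245 were. Named neighbours within a series followed the RefSeq gene order in 99.7% of pairs on chromosome 4 and in 98.4% and 98.5% on chromosome 15. The third series, of higher numbers, held no cluster with a single gene symbol, so its members, 265 on chromosome 4 and 305 on chromosome 15, could be assigned to a chromosome but to no position. Neither coordinates nor sequences of the unnamed clusters were used here.

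The greatest falls on chromosome 4 were spread over the placed and the unplaced series. TC04000716, on the plus strand between C4orf51 and LSM6, a subunit of the ring that binds U6 small nuclear RNA, read 6.42, 6.37 and 6.46 on the overexpression arrays against 7.72, 8.01 and 7.37 on the control arrays. It fell 2.44-fold (limma, adjusted p = 0.00455), and the gap between the groups was wider than the range within either. Next to it, LSM6 had a log2 difference of 0.07 (adjusted p = 0.691), and C4orf51 was too dim to be tested.

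Among the 10 greatest falls, that of the third-series cluster TC04002523 had the lowest adjusted p. It read 5.14, 5.23 and 5.23 against 6.36, 6.38 and 6.26, a 2.19-fold fall (adjusted p = 0.000462), with each group spanning far less than the difference. It is 1 of 5 members of chromosome 4 called lower also by a test that does not share the spread between clusters (adjusted p = 0.031). TC04002789 read 6.64, 6.62 and 6.48 against 7.59, 7.88 and 7.40 (2.06-fold lower, adjusted p = 0.00471). Both were called lower whichever single array was left out.

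Further falls of chromosome 4 were smaller than 2-fold. TC04000135 read 5.44, 5.46 and 5.26 against 6.26, 6.32 and 6.14 (1.81-fold lower, adjusted p = 0.00208). It sits on the plus strand between HSP90AB2P, a heat shock protein pseudogene, and CPEB2, a regulator of translation through the poly(A) tail, and CPEB2 itself fell (log2 difference -0.53, adjusted p = 0.0128). TC04002853 spread more, at 6.59, 6.27 and 6.30 against 7.20, 7.80 and 7.08 (adjusted p = 0.0262). The other falls among the 10 greatest, TC04001919, TC04002488, TC04002887, TC04002771 and TC04002845, all of the third series, lay between -0.76 and -0.64 on the log2 scale. Groups that did not overlap were a condition for this list.

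**Figure D2:**
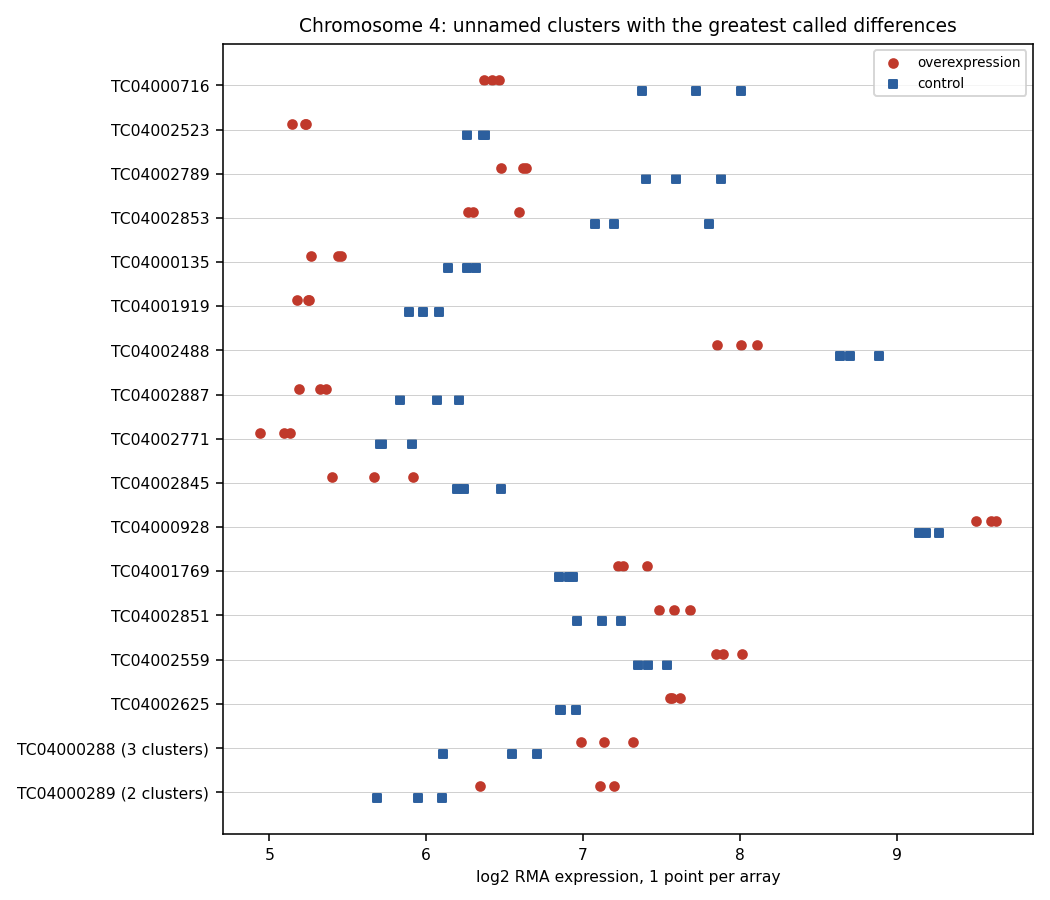
Level on each of the 6 arrays (x axis, log2 RMA units) for the chromosome 4 members with the greatest called falls and rises (y axis), with overexpression arrays as circles and control arrays as squares; clusters with identical values share a line. All circles of the top 10 lines lie left of all squares, and those of the lower 7 lines lie right of them, which the choice of members required.

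The rises on chromosome 4 were led by clusters around the centromere. TC04000289, on the plus strand between CWH43 and DCUN1D4, and TC04001182, on the minus strand between OCIAD2 and LRRC66, had identical values of 7.20, 7.11 and 6.34 against 5.69, 5.95 and 6.10. They rose 1.96-fold (adjusted p = 0.0431), with overexpression replicate 3 close to the control arrays and the others far above them. TC04000288, TC04001183 and TC04001185, in the same intervals, shared 7.32, 6.99 and 7.13 against 6.55, 6.11 and 6.71 (1.61-fold higher, adjusted p = 0.0421). CWH43 and OCIAD2 are genes of the short arm and DCUN1D4 and LRRC66 of the long arm, so both intervals hold the centromere. TC04000290, the third in a run of 3 neighbours whose groups did not overlap, read 5.55, 6.18 and 5.52 against 4.79, 5.31 and 5.08 and did not pass the test (adjusted p = 0.0879). The values of TC04000288 were not particular to this place: they recurred exactly in 35 features on 10 chromosomes, TC15000017 and TC15001032 of chromosome 15 included. Those of TC04000289 were found in 3 features on 2 chromosomes, and those of TC04000290 in 13 features on 7 chromosomes.

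Among the other rises, TC04002625 had the lowest adjusted p, at 7.56, 7.57 and 7.62 against 6.86, 6.96 and 6.86 (1.61-fold, adjusted p = 0.00177). Like TC04002559 and TC04002851 it belongs to the third series, so its position is not known. TC04002559 rose by 0.48, TC04002851 by 0.47 and TC04001769 by 0.40 on the log2 scale, the last on the minus strand next to VEGFC, a lymphatic growth factor, whose own difference was -0.45 with an adjusted p of 0.208. TC04000928, between TRIML1 and HSP90AA4P, was the brightest of these rises at 9.51, 9.60 and 9.64 against 9.14, 9.19 and 9.27 (1.30-fold, adjusted p = 0.0188). Separate groups were a condition for listing these rises.

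Among the called clusters of chromosome 15, the greatest fall was that of TC15002563 of the third series, at 5.10, 5.50 and 5.41 against 6.30, 6.57 and 5.99 (1.93-fold lower, adjusted p = 0.017). TC15002546, also of the third series, was tighter at 6.43, 6.47 and 6.50 against 7.02, 7.14 and 7.23 (1.59-fold lower, adjusted p = 0.00353), and it was called lower whichever array was left out. Separate groups were a condition for listing both. The bright TC15002609 read 11.70, 11.73 and 11.60 against 12.21, 12.32 and 12.02 (1.42-fold lower, adjusted p = 0.0178). It was the 1 called member of a run of 4 neighbours in the third series, TC15002607 to TC15002610, whose groups all failed to overlap downward, with differences of -0.51 to -0.15.

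The rises of chromosome 15 were modest. After the pair shared with chromosome 4, TC15000015, between LINC01193 and the olfactory receptor gene OR4M2 near the centromere, read 7.93, 7.78 and 7.70 against 7.45, 6.97 and 7.32 (1.47-fold higher, adjusted p = 0.0423). TC15001032 belonged to a run of 4 on the minus strand between CXADRP2 and MIR1268A, TC15001031 to TC15001037, in which it was the 1 called member. The run held 3 distinct sets of values, since TC15001031 and TC15001034 read the same. Values of that pair recurred in 22 features on 6 chromosomes, and those of TC15001032 in 35 features on 10 chromosomes. The other called rises among the 10 greatest, TC15002642, TC15002752, TC15002714, TC15001902, TC15002260, TC15002014 and TC15000909, lay between 0.31 and 0.43. TC15001902 sits on the minus strand beside RGMA, a repulsive axon guidance protein, whose own difference was 0.05 with an adjusted p of 0.685. TC15000909 sits on the plus strand beside HMGN1P38, a pseudogene that rose by 0.34 (adjusted p = 0.0266).

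**Figure D3:**
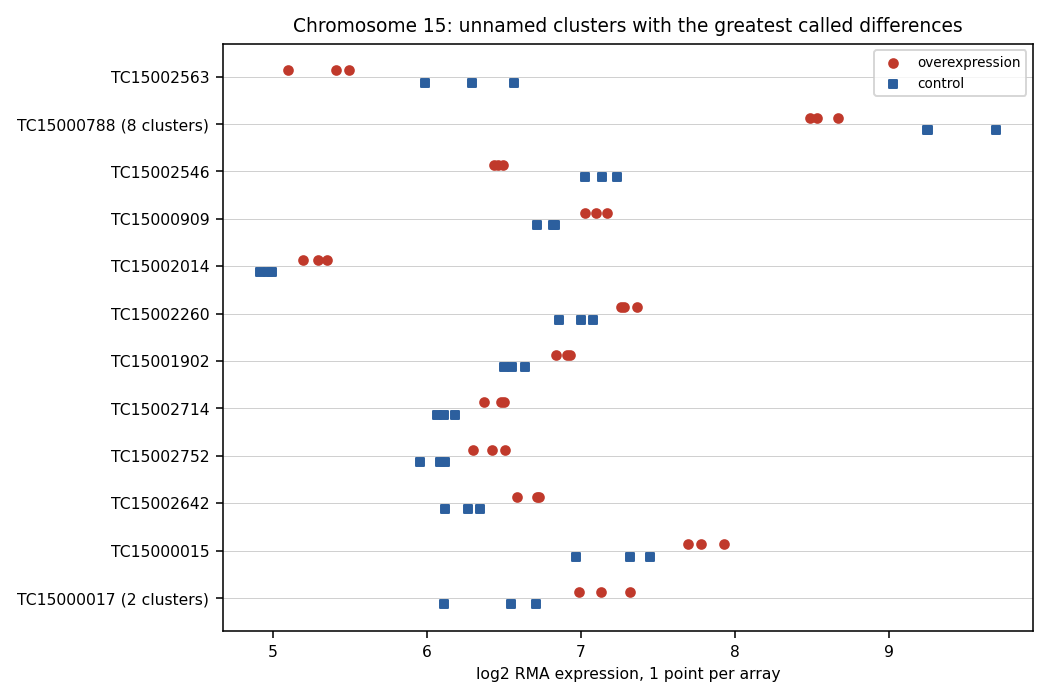
Level on each of the 6 arrays (x axis, log2 RMA units) for the chromosome 15 members with the greatest called falls and rises (y axis), with overexpression arrays as circles and control arrays as squares; clusters with identical values share a line. The 8 clusters with the values of TC15000788 sit between 8.49 and 8.67 in overexpression and between 9.25 and 9.70 in control cells.

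Repeated values were common among the unnamed transcripts of chromosome 15. Of its 770 members, 122 or 15.8% matched at least 1 other feature in every deposited digit on all 6 arrays, leaving 681 distinct sets of values. This was the highest share of the 23 chromosomes, followed by chromosome 17 at 9.19%, and on chromosome 4 it was 22 of 500 or 4.4%. Over all tested unnamed clusters it was 5.63%. Clusters with identical values are 1 measurement, and counting each set once left 20 falls and 12 rises on chromosome 15 and 23 falls and 11 rises on chromosome 4. In a refit of the whole array with 1 cluster per set, where the kept copy may lie on another chromosome, 23 members of chromosome 4 were lower and 10 higher, and 23 and 14 of chromosome 15, against 2.4% and 3.63% of all clusters in that fit.

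The largest effect of such copies on the counts came from 8 clusters of chromosome 15, TC15000768, TC15000775, TC15000781, TC15000788, TC15000803, TC15001749, TC15001779 and TC15001781. They read 8.53, 8.67 and 8.49 on the overexpression arrays against 9.25, 9.70 and 9.25 on the control arrays, 8.56 ± 0.10 against 9.40 ± 0.26 (SD, n = 3 each). The fall was 1.78-fold (adjusted p = 0.0117) and gave 8 of the 27 calls. The same values were found in 10 features on 2 chromosomes, so they were not particular to chromosome 15. The clusters were interleaved on both strands with EFL1, a GTPase of ribosome maturation, with its pseudogene EFL1P1 and with ADAMTS7P1, UBE2Q2P2, UBE2Q2P16, CPEB1-AS1, CSPG4P5, GOLGA6L10 and GOLGA6L5P. The nearest named clusters did not pass the test: the log2 difference was -0.14 for EFL1 (adjusted p = 0.358), -0.14 for EFL1P1 (adjusted p = 0.35) and -0.10 for UBE2Q2P2 (adjusted p = 0.51). It was -0.12 for GOLGA6L5P (adjusted p = 0.454) and -0.05 for GOLGA6L10 (adjusted p = 0.751). Positive differences were those of UBE2Q2P16 (0.26, adjusted p = 0.215), ADAMTS7P1 (0.08, adjusted p = 0.605) and CSPG4P5 (0.06, adjusted p = 0.857). CPEB1-AS1 was too dim to be tested.

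Other copied sets differed more between the control arrays than between the groups. TC15000769 and 3 further clusters among the same neighbours read 5.29, 5.30 and 4.92 against 6.71, 7.10 and 5.31, a difference of -1.20 (adjusted p = 0.135), with control replicate 3 next to the overexpression arrays. TC15000166 and 3 more, placed among the GOLGA8 genes, read 5.68, 5.86 and 6.06 against 6.99, 7.69 and 5.90 (a difference of -0.997, adjusted p = 0.192), and here control replicate 3 lay inside the overexpression range. These were the greatest differences of the placed clusters of chromosome 15, and neither set was called. The most numerous sets, 12 clusters each, differed by 0.15 for TC15000023 (adjusted p = 0.573) and by -0.48 for TC15000772 (adjusted p = 0.335). The values of TC15000772 were found in 14 features on 2 chromosomes.

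**Figure D4:**
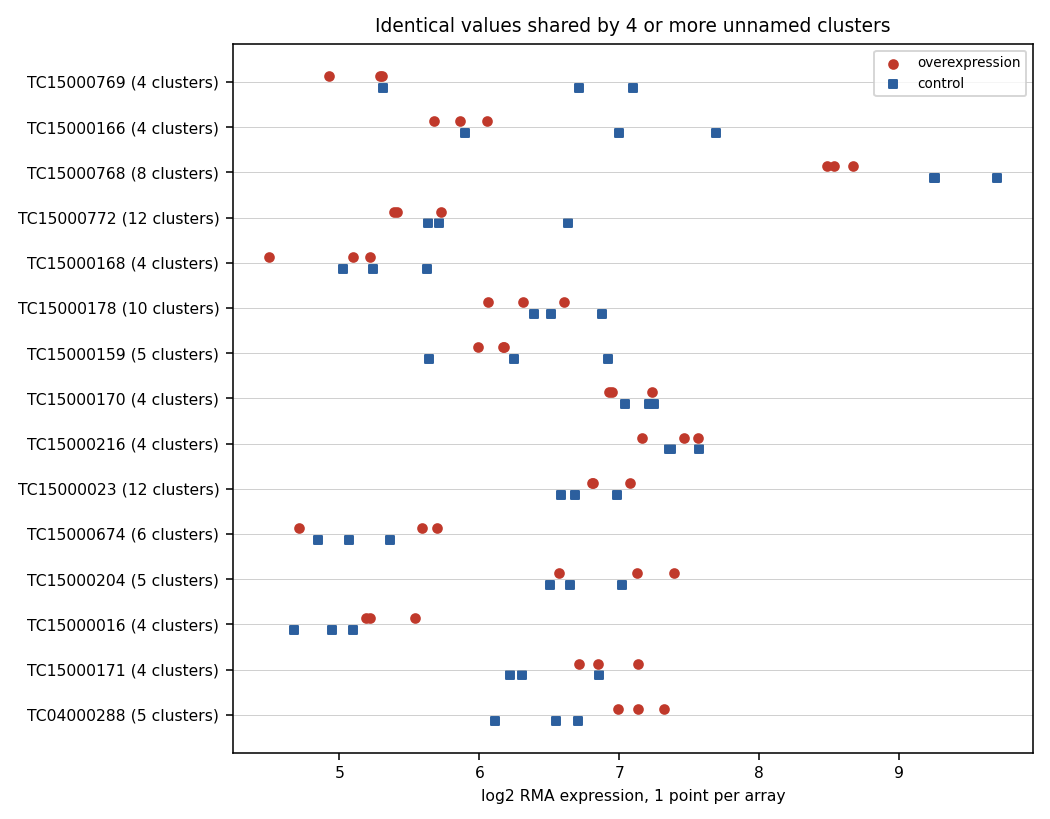
Level on each of the 6 arrays (x axis, log2 RMA units) for every set of identical values shared by at least 4 members (y axis, first identifier and number of members), ordered from the lowest to the highest difference, with overexpression arrays as circles and control arrays as squares. In the top lines 1 control array lies near or among the overexpression arrays, while the 8 clusters led by TC15000768 have separate groups.

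The falls of the named genes were not seen in the unnamed transcripts placed among them. To compare them, stretches of named falls were outlined as runs of at least 10 named clusters whose running median over 21 neighbours was -0.1 or lower on the log2 scale, an outline drawn after the values were seen. On chromosome 4 this gave 1 stretch, from CC2D2A to CLOCK, across the centromere. Its 85 named clusters had a median of -0.29, 73 lay below 0, and 35 fell while 2 rose. The 53 unnamed members placed in the stretch had a median of 0.11, 15 lay below 0, and 0 fell while 5 rose. Those 5 rises came from 2 distinct sets of values. At an unadjusted limma p under 0.05 there were 17 of the 53, in either direction, against 20.3% of all tested clusters. Of these, 10 were among the 19 members of the centromeric intervals and 7 among the other 34. Counted once per set of identical values, it was 12 of 45. Outside the stretch, the 179 placed members had a median of 0.02, with 5 falls and 4 rises.

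The positive median inside that stretch rested on the centromeric intervals. The 19 members between CWH43 and DCUN1D4 or between OCIAD2 and LRRC66 all lay above 0, from 0.11 to 0.97, and carried the 5 rises. Counted once per set of identical values they were 11, with a median of 0.26 and 2 rises. The other 34 members of the stretch had a median of 0.02, and 15 of them lay below 0. None of these 34 was called by limma, and their differences ran from -0.60 to 0.28.

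On chromosome 15 the outline gave 5 stretches, from KATNBL1 to THBS1, MAP1A to DUOX1, EID1 to FOXB1, RNU6-19P to SNORD16 and MIR4312 to RNA5SP399. Their 121 named clusters had a median of -0.18, with 98 below 0, 20 falls and 1 rise. The 74 unnamed members placed in them had a median of 0.01, with 34 below 0, 1 fall and 0 rises. The longest stretch, EID1 to FOXB1, held 55 named clusters with 12 falls and 47 members with 1 fall, at medians of -0.21 and 0.00276. FBN1, a microfibril protein gene of chromosome 15 outside the outlined stretches, read 8.64, 8.70 and 8.76 against 9.71, 10.15 and 9.27 (2.02-fold lower, adjusted p = 0.0256). The member that fell in the EID1 to FOXB1 stretch was TC15000453, between LDHAL6B and FAM81A. It read 5.86, 5.87 and 5.87 against 6.17, 6.25 and 6.18 (1.26-fold lower, adjusted p = 0.0171). Its groups were tight and well apart, but it was singled out after its values were seen.

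**Figure D5:**
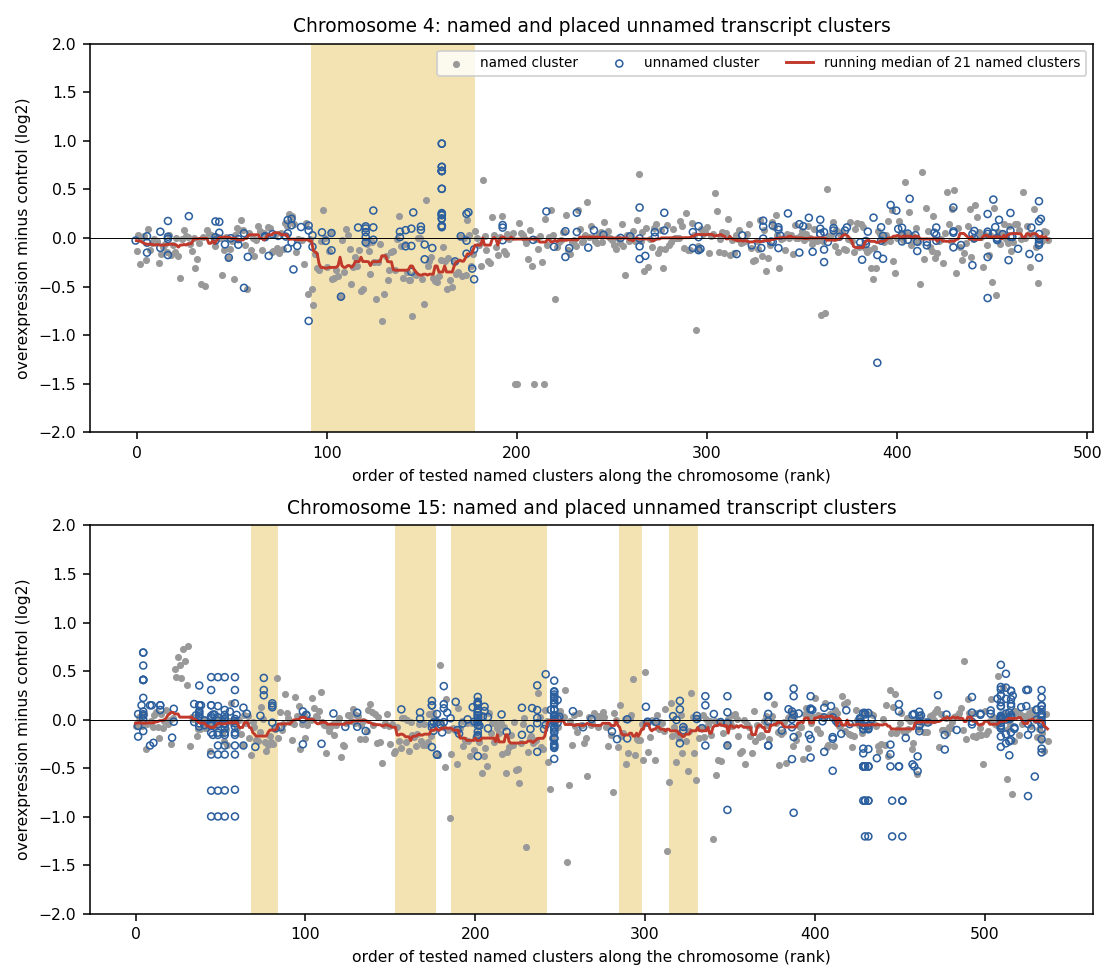
Difference of overexpression minus control (y axis, log2) for tested named clusters (grey points) and placed unnamed clusters (open circles) in chromosome order (x axis, rank among tested named clusters), for chromosomes 4 and 15; the line is the running median of 21 named clusters, the shaded bands are the outlined stretches, and values beyond 1.5 in size are drawn at that limit. Inside the chromosome 4 band, drawn where the line is at -0.1 or lower, the 85 named clusters have a median of -0.29 and the 53 circles one of 0.11.

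Named and unnamed clusters differ in brightness, so their medians inside the stretches are given by level, as a description. The stretches were outlined by the falls of their named clusters, which fixes the sign of the named medians. On chromosome 4, with mean levels under 6, the 26 named clusters had a median of -0.15 with 9 falls and the 24 unnamed members 0.06 with 0 falls. With levels of 6 to 8, the 39 named clusters had a median of -0.28 with 15 falls and the 26 members 0.20 with 0 falls and 5 rises, which are the copied centromeric clusters above. At 8 and over there were 20 named clusters, with a median of -0.36, but only 3 members. Across the placed members of the whole chromosome, with each set of identical values counted once, the difference of a member and the median difference of the 5 named clusters on each side correlated at r = -0.17 (rho = -0.07) over 223 sets. On chromosome 15 it was r = -0.04 (rho = -0.01) over 371 sets. These correlations are across clusters of the same arrays, which are not independent, and are given as a description. By level inside the chromosome 15 stretches, the 37 named clusters under 6 had a median of -0.02, with 20 below 0. The 39 unnamed members of that level had a median of 0.00276, with 19 below 0. At 6 to 8 the medians were -0.21 for 48 named clusters and 0.00336 for 31 members. At 8 and over they were -0.22 for 36 named clusters and 0.13 for only 4 members.

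Bright unnamed transcripts of chromosome 15 did lean the way of its named genes. Of its 79 members with a mean level of 8 or more, 58 or 73.4% lay below 0, with a median of -0.12, 13 falls and 1 rise. Counted once per set of identical values, 48 of 69 lay below 0, with 6 falls. Unnamed clusters of that brightness on the other chromosomes lay below 0 in 728 of 1722 cases, 42.3%, with a median of 0.03. Named clusters of chromosome 15 at that level lay below 0 in 104 of 123 cases, with a median of -0.17. In the third series, which held no copied sets at that level, 28 of 35 bright members lay below 0. In the placed series 30 of 44 did, but counted once per set of identical values it was 20 of 34, with a median of -0.05 and 1 fall. The 4 bright members inside the outlined stretches went the other way, with 0 below 0 and a median of 0.13. The lean was weaker in dimmer members: the median was -0.04 for the 278 members between 6 and 8 and 0.01 for the 413 under 6. With centred arrays, with cyclic loess and with any single array left out, the median of the bright members lay between -0.15 and -0.10, and with 1 cluster per set of identical values over the whole array it was -0.09.

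Chromosome 4 showed no such lean over all its bright members, of which 28 of 54 lay below 0 with a median of -0.02, although the named clusters at that level had a median of -0.13 with 63 of 75 below 0. The placed and the unplaced bright members had medians of opposite sign. In the first and second series 5 of 20 lay below 0, with a median of 0.09, and in the third series 23 of 34 did, with a median of -0.10. Without control replicate 3 the median of all 54 was 0.02.

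Most of the called falls belonged to clusters that could not be placed. On chromosome 4 the third series held 18 of the 23 falls and 5 of the 14 rises, 6.79% and 1.89% of its 265 members. The first series held 2 falls and 5 rises among 113 members, and the second 3 falls and 4 rises among 119. On chromosome 15 the third series held 15 of the 27 falls and 6 of the 13 rises among 305 members, 4.92% and 1.97%, and the remaining 12 falls came from 5 sets of values in the first and second series. Whether the unplaced falls lie in the stretches of named falls was not tested, since no position was used for them.

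Of the landmark genes listed for the secreted proteins and sulfotransferases of 4q13, SULT1B1, a cytosolic sulfotransferase, read 3.70, 3.70 and 3.45 against 6.22, 6.80 and 7.48, and FDCSP, a secreted peptide gene, read 4.36, 4.10 and 4.37 against 7.28, 6.52 and 5.71. Both lay under the array median on every overexpression array and passed the filter through the control arrays alone, so they had to differ. No fold change is drawn from them, but both are among the 56 named clusters of chromosome 4 counted as lower. EREG, a ligand of the epidermal growth factor receptor that was above the median on all 6 arrays, was at 6.22 ± 0.18 against 8.34 ± 0.88 (SD, n = 3 each; 4.34-fold lower, adjusted p = 0.0213). The greatest called fall among the unnamed members was the 2.44-fold of TC04000716. Of the 15q11-q13 genes 4 were tested and 1, the ubiquitin ligase gene UBE3A, was lower (log2 difference -0.27, adjusted p = 0.0449). Of the receptor kinase genes of 4q12, PDGFRA differed by -0.38 (adjusted p = 0.103) and KDR by 0.19 (adjusted p = 0.127), and neither passed the test.

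The number of called members moved with single arrays. Without control replicate 3, 36 members of chromosome 4 were lower and 26 higher, and 71 and 23 of chromosome 15, against 5.76% and 7.33% of all tested clusters in that fit. With array weights, 34 and 17 were called on chromosome 4 and 62 and 24 on chromosome 15, against 4.29% and 6.05%. Without overexpression replicate 1, 10 members of chromosome 4 were lower and 2 higher, and 4 and 0 of chromosome 15, against 0.539% and 0.756% of all tested clusters in that fit. With a test that did not share the spread between clusters, 5 were lower and 1 higher on chromosome 4, and 2 and 4 on chromosome 15, against 0.358% and 0.614%.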

How the data were processed

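Total RNA of 6 samples, 3 of stable GUCY1B3 overexpression and 3 of U87 MG, had been hybridised to 1-colour Affymetrix arrays. The deposited values are log2 expression after RMA in Affymetrix Expression Console, per the submitters' processing notes and the labels; software versions, library files and genome build are not given in the sources used here. No column of the table was left unmapped, and the scanner intensities were not analysed here.

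Clusters were named through the platform annotation (1 symbol), and ordered through the RefSeq gene table, used for names and order only. Y-linked clusters were left out. Clusters above the array median on at least 3 of 6 arrays were fitted together with limma 3.58.1 (lmFit and eBayes, R 4.3.3; residual degrees of freedom 4, prior 3.84), overexpression minus control, two-sided, with Benjamini-Hochberg adjustment over all 33222 and a threshold of 0.05; tables and plots used Python 3.11.15. "Not passing" in the text means an adjusted p at or above that threshold. The fit was checked on simulated data.

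The members, lists and tests were chosen with earlier results of these data known. Named members were, per chromosome, the 10 greatest falls and 10 greatest rises among called clusters with separate groups, the 2 brightest, those next to the filter, the longest run of at least 3 neighbours with separate groups, the named clusters flanking them, and listed landmark and marker genes. Alternatives were array centring, cyclic loess, no filter, a filter on all 6 arrays, an ordinary equal-variance test, array weights, a replicate block and leaving out each array. One cluster per set of identical values and a running median of 41 were added after the data were seen. Same-numbered samples did not deviate together in every pair (correlations 0.186, -0.0278 and -0.139), so the numbers were not taken as pairs.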

Additional observations from a re-analysis of the deposited data

How the results depend on the processing

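None of the 77 called members changed direction under the alternatives in which it was fitted; 73 of them were fitted with the filter on all 6 arrays and 63 with 1 cluster per set of identical values. Of these 77, 11 lost their call with arrays centred on their medians, 15 with cyclic loess, 24 without the filter, 67 with the ordinary equal-variance test, 2 with array weights and 40 with the replicate block. Leaving out 1 array cost 62, 61 and 59 of them their call for overexpression replicates 1 to 3 and 43, 35 and 0 for control replicates 1 to 3; fewer arrays enter these fits.
On chromosome 4 the 37 calls (23 lower, 14 higher) were 6 (5 and 1) with the ordinary test and 20 (14 and 6) with the replicate block, and the rises were 9 with centred arrays, 8 with cyclic loess and 6 without the filter. Leaving out 1 array gave 12 to 62 calls, 10 to 36 lower and 1 to 26 higher. On chromosome 15 the 40 calls (27 lower, 13 higher) were 6 (2 and 4) with the ordinary test, 86 (62 and 24) with array weights and 21 (17 and 4) with the replicate block, and the rises were 7 without the filter. Leaving out 1 array gave 4 to 94 calls, 4 to 71 lower and 0 to 23 higher.
The median difference of the chromosome 4 members, 0.0129, was -0.00925 with centred arrays and -0.00989 with cyclic loess, and -6.83e-05 to 0.0324 with 1 array left out. That of the members placed outside the stretch, 0.0153, was -0.00687 and -0.00771, and 0.000715 to 0.0358 with 1 array left out. Inside the stretch the median of 0.108 was 0.0296 without the filter and 0.0633 with 1 cluster per set of identical values over the whole array. On chromosome 15 the median of all members, -0.00734, was -0.033 with cyclic loess and -0.0295 with centred arrays, and its sign turned without the filter (0.00536) and without overexpression replicate 2 (0.0119), with -0.02 the lowest value when 1 array was left out. Inside its stretches the median of 0.0134 was -0.00873 with centred arrays, -0.0151 with cyclic loess and -0.00752 with a running median of 41. The cause of these moves was not tested. Signal over background is not known for these values, so dim members may be at background.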
